A study of Mus musculus with 6 samples.

Results

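RNA of pancreatic acinar cells in isolated mouse islets was measured through 34 genes. They were 30 genes of digestive enzymes, their cofactors and inhibitors, secretory granule proteins and related acinar products, and the transcription factor genes Ptf1a, Rbpjl, Bhlha15 and Nr5a2. The genes were a list of names, matched by symbol, and all 34 were found among the 34245 genes in the table. The study compared whole islets of mice lacking the lipid transporter gene Abca12 in cells that express Rip1-Cre (KO) with islets of control mice (HET). KO mice carried the floxed Abca12 allele in its deleted form, tm1d, and HET mice were heterozygous for the floxed allele. All 6 mice carried Rip1-Cre, were of strain C57BL/6J and were 5 weeks old, and each group had 3 libraries, each with an animal code of its own. Rip1-Cre is driven by the rat insulin promoter, which is active in beta cells and not by design in acinar cells, so the acinar cells of a KO mouse are not the cells meant to lose the gene.

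Acinar cells make up most of the pancreas and surround the islets. They synthesise digestive enzymes, mostly as inactive proenzymes, store them in zymogen granules and release them towards the gut. Ptf1a and Rbpjl are subunits of the PTF1 complex, which binds enzyme gene promoters at an E-box followed by a TC-box. Bhlha15, also called Mist1, acts in the maturation of the secretory apparatus, and Nr5a2 is a nuclear receptor that acts with PTF1 on enzyme genes. Islets are freed from exocrine tissue during isolation, and some acinar RNA usually remains.

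Libraries are called KO 1 to 3 and HET 1 to 3, in the order of the records, and a level is given as RPM, reads scaled to the library total in units of 1e6 reads. In each list of 3 values, the order is library 1, 2 and 3. Totals ran from 27447026 to 35511008 reads, and 3 reads corresponded to 0.0845 to 0.109 RPM. Beta cell RNA was abundant throughout: the 10 beta cell genes listed, among them Ins1 and Ins2, together held between 108364 and 141301 RPM in KO libraries and between 109816 and 117309 RPM in HET libraries. Abca12 had 2 reads in KO 1 and 0 in the other 5 libraries, which leaves genotype unchecked at this gene. KO 2 held 13659 reads of the female-specific transcript Xist and 1481 reads of the Y-linked gene Ddx3y. No other library held both in such amounts, so whether KO 2 holds RNA of 1 animal is not known. KO 1 and HET 2 had 9612 and 10494 reads of Xist and 0 of Ddx3y, as in females. KO 3, HET 1 and HET 3 had 1470, 3156 and 1647 reads of Ddx3y and at most 5 of Xist, as in males. Sex by these genes thus differed within each group, and it was not part of the fits. Several differences between the groups are also given without KO 2.

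Acinar RNA differed more between libraries of the same genotype than between the group means. The 34 genes held 0.704% of the reads of all listed genes in KO 1, 2.64% in KO 2 and 0.187% in KO 3, and 6.32% in HET 1, 0.168% in HET 2 and 0.102% in HET 3. HET 1 was thus the highest library and HET 3 the lowest, both of the control genotype, and the KO libraries lay between HET 1 and HET 2. The smallest of these numbers rests on 22428 reads and the largest on 1286727, and the exact 95% binomial interval for HET 3 was 0.101% to 0.104%. Such intervals cover only the error of counting. The means were 1.18% ± 1.29 in KO and 2.20% ± 3.57 in HET (SD, n = 3 each), whereas the medians were 0.704% and 0.168%. The mean was higher in HET and the median higher in KO. The difference of the means was -1.02 percentage points, 1.04 without HET 1, and -1.75 without KO 2, when the KO mean was 0.446%. In bulk RNA, fewer acinar cells and less RNA per acinar cell cannot be told apart.

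**Figure D1:**
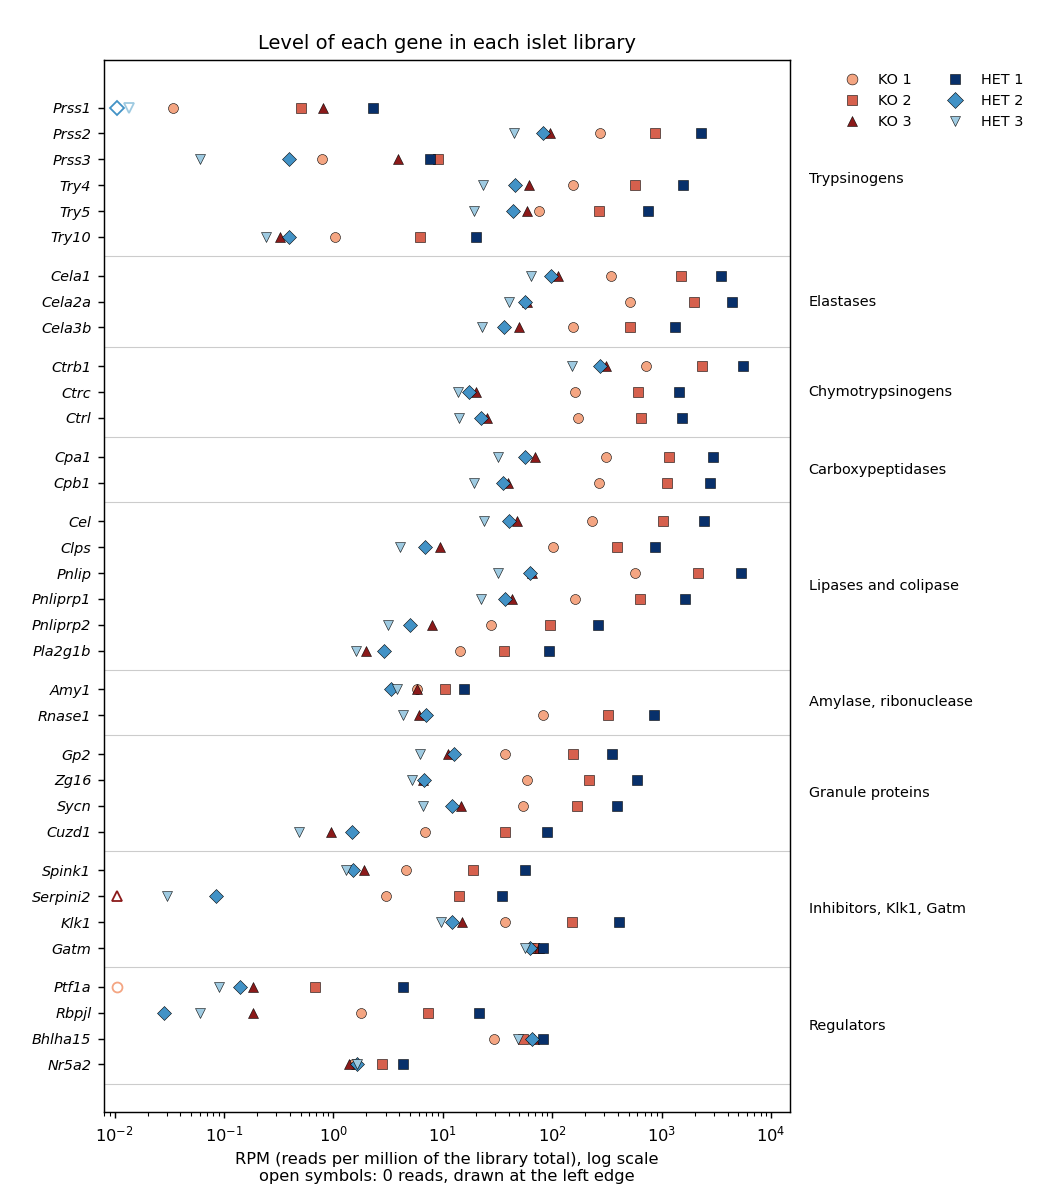
Level of each of the 34 genes (rows, grouped by role) in each of the 6 islet libraries, as RPM on a log axis; open symbols mark 0 reads and have no position on the scale. Most enzyme genes share 1 order, with HET 1 (dark blue squares) highest, then KO 2 and KO 1, and with KO 3, HET 2 and HET 3 low, whereas Gatm and Bhlha15 span a narrow range.

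The lipid-digesting enzymes showed the spread most plainly. Pnlip, which encodes pancreatic triglyceride lipase (chromosome 19, 58670365 to 58681786, GRCm38), had 564 RPM in KO 1, 2162 in KO 2 and 64.9 in KO 3, and 5351 in HET 1, 63.2 in HET 2 and 31.9 in HET 3. Clps, the colipase that anchors this lipase to fat droplets, had 102, 386 and 9.51 RPM in the KO libraries and 870.5, 6.84 and 4.04 RPM in the HET libraries. HET 1, KO 2 and KO 1 were high and the other 3 libraries low for both genes, and the genotypes overlapped completely. The bile salt-activated lipase gene Cel, the lipase-related genes Pnliprp1 and Pnliprp2 and the phospholipase gene Pla2g1b followed the same order of the 3 highest libraries. HET 1 exceeded HET 3 by 168-fold for Pnlip (exact 95% counting interval 158 to 178), 215-fold for Clps (182 to 257) and 58.1-fold for Pla2g1b (44.3 to 77.7).

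The chymotrypsin and elastase genes, whose products cut inside proteins, repeated this order. Ctrb1, a chymotrypsinogen gene (ENSMUSG00000031957.6, chromosome 8, 111686519 to 111691010), had 725, 2336 and 309 RPM in the KO libraries and 5479, 275 and 152 RPM in the HET libraries. Its HET 1 over HET 3 ratio was 36.0, smaller than the 104 of Ctrc and the 108 of Ctrl, the other chymotrypsin-type genes. Elastases digest elastin and other proteins, and the elastase genes Cela1, Cela2a and Cela3b had ratios of 54.3, 110 and 58.8. Cela1 alone went from 64.1 RPM (HET 3) to 3483 RPM (HET 1). Cpa1 and Cpb1, carboxypeptidase proenzymes that trim protein ends, had ratios of 92.1 and 143. No ratio in these classes was below 36.0, so every chymotrypsin, elastase and carboxypeptidase gene named here differed by more than 10-fold between these 2 HET mice.

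Across the 30 genes other than the transcription factors, 27 had HET 1 highest, KO 2 next, KO 1 after it and the remaining 3 libraries below. The exceptions were Prss1, Prss3 and Gatm. The same 27 of 30 is the number with all of KO 1, HET 1 and KO 2 above HET 2, HET 3 and KO 3, a pattern shown by 16.8% of the 14238 genes whose mean reached 1 RPM. The first 3 are the animals with the lowest codes in the labels and the others those with the highest. They are called the low-code libraries (KO 1, HET 1 and KO 2) and the high-code libraries (HET 2, HET 3 and KO 3), and the labels do not say what the codes stand for. HET 3 was the lowest library for 27 of 30 genes. Of the 29 genes with reads in HET 3, 27 differed by more than 10-fold and 12 by more than 100-fold between HET 1 and HET 3, and 0.998% of 14233 genes passed 10-fold. The median ratio was 83.2 for these genes and 0.858 for all genes tested.

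The KO mice also differed among themselves, to a lesser degree. Of 29 genes with reads in KO 3, 20 were more than 10-fold higher in KO 2 than in KO 3, with a median ratio of 14.0 against 0.958 over all genes tested. Rnase1, the pancreatic ribonuclease gene, had the largest such ratio at 52.8, from 6.08 RPM in KO 3 to 321 RPM in KO 2. KO 1, which does not share the mixed Xist and Ddx3y signal of KO 2, exceeded KO 3 with a median ratio of 3.46. The spread among KO mice was therefore present without KO 2 and smaller.

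**Figure D2:**
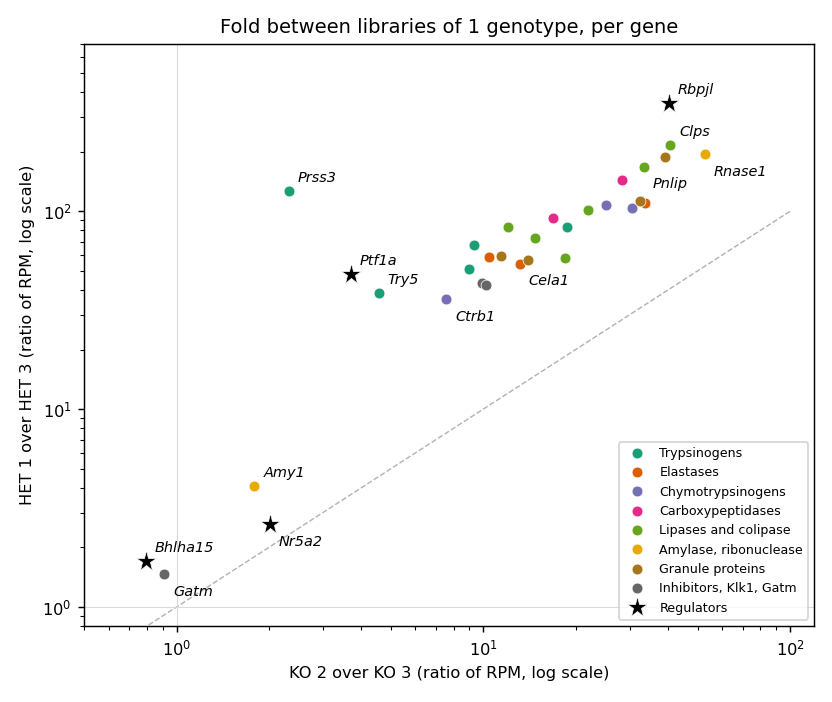
HET 1 over HET 3 (vertical) against KO 2 over KO 3 (horizontal) for each gene, as ratios of RPM on log axes; the dashed line marks equal ratios, and Prss1 and Serpini2 have no point because a denominator library had 0 reads. Most enzyme genes lie between 36.0 and 215 on the vertical axis, whereas Gatm, Bhlha15, Nr5a2 and Amy1 lie near the origin and Prss3 and Ptf1a lie to the left of the rest.

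Granule and inhibitor genes moved with the enzymes. Gp2, the major membrane protein of zymogen granules, had 37.0, 154 and 11.0 RPM in the KO libraries and 348, 12.7 and 6.15 RPM in the HET libraries. Zg16 and Sycn, which encode granule-associated proteins, and Cuzd1 had HET 1 over HET 3 ratios of 113, 59.1 and 187. Spink1 encodes the trypsin inhibitor that protects the gland, and its ratio was 43.6 (32.2 to 60.5), close to the 42.5 of the tissue kallikrein gene Klk1. Serpini2, a serine protease inhibitor family gene, had 89, 416 and 0 reads in the KO libraries and 1081, 3 and 1 reads in the HET libraries. It was thus near absent from the 3 high-code libraries, and its ratio of 1159 rests on a single read in HET 3, with an interval of 208 to 45809.

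Gatm and Amy1 did not share the range of the other genes. Gatm, which encodes an enzyme of creatine synthesis and is strongly expressed in acinar cells and in other tissues, had 67.5, 68.0 and 74.8 RPM in the KO libraries and 81.8, 62.5 and 55.9 RPM in the HET libraries. These 6 values lay within 1.46-fold of each other. Amy1, the amylase gene named for its salivary product, had 5.86, 10.4 and 5.79 RPM in the KO libraries and 15.5, 3.35 and 3.80 RPM in the HET libraries, a HET 1 over HET 3 ratio of 4.07. The Amy1 gene model overlaps Rnpc3 on its own strand, and shared reads may belong to either gene. By contrast the pancreatic amylase gene Amy2a5, outside the 34, ranged from 1.02 RPM in KO 3 to 161 RPM in HET 1.

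Trypsinogens, the precursors of trypsin, which activates the other proenzymes, come from a cluster of close copies on chromosome 6. The first 60 coding bases of the 6 members and of 3 neighbouring trypsinogen-like genes are shown because their likeness bears on how reads were assigned. Sequences are from GENCODE M21 on GRCm38, from the start codon, 5′ to 3′, and capitals mark bases that differ from Prss2.
Prss1: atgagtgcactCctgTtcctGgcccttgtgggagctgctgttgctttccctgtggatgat
Prss2: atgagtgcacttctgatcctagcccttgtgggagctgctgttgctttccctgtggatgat
Prss3: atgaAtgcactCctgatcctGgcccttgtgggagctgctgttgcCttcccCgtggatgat
Try4: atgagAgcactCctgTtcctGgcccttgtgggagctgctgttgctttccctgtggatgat
Try5: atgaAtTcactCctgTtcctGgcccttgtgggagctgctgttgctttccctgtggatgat
Try10: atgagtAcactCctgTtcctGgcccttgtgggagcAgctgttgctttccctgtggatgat
Gm5771: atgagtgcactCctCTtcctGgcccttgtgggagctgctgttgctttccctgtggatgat
Gm10334: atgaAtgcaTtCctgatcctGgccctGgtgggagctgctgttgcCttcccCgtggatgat
2210010C04Rik: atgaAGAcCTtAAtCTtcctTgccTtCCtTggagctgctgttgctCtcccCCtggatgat
Prss1 differs from Prss2 at 3 of these bases, Try4 at 4, Prss3, Try5 and Try10 at 5, and 2210010C04Rik at 17. Over the whole coding sequence Prss3 and Gm10334 were 99.1% identical, with an unbroken shared run of 290 bases. Prss1 and Gm5771 were 98.0% identical, and Try4 and Try5 97.4%, with a shared run of 274 bases. How the authors counted reads that match several copies is not given in the sources used here, so the values of single copies are uncertain.

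Among the trypsinogens, Prss2, Try4, Try5 and Try10 followed the other enzymes, and Prss1 and Prss3 did not. Prss2 (ENSMUSG00000057163.3, chromosome 6, 41521787 to 41525079) had 272, 862 and 95.9 RPM in the KO libraries and 2281, 82.1 and 44.9 RPM in the HET libraries. Try4 had 153, 570 and 61.2 RPM in the KO libraries and 1573, 45.2 and 23.2 RPM in the HET libraries. Prss3 had 0.788, 8.98 and 3.86 RPM in the KO libraries and 7.63, 0.394 and 0.0603 RPM in the HET libraries. KO 2, not HET 1, was thus the highest library for Prss3, and KO 3 exceeded KO 1. Prss1 had 0.0343, 0.504 and 0.802 RPM in KO and 2.30 RPM in HET 1, with 0 reads in HET 2 and HET 3. Its reads were too few for the filter of a mean of 1 RPM.

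Relative to Prss2, the copies Prss1, Prss3 and Gm5771 were highest in KO 3. Per 1000 Prss2 reads, Prss3 had 2.90, 10.4 and 40.3 reads in the KO libraries and 3.34, 4.80 and 1.34 reads in the HET libraries. The counting interval in KO 3 was 32.8 to 48.9, above all other libraries. Gm5771 showed the same, with 17.1 reads per 1000 Prss2 reads in KO 3 and 0.126 in KO 1, and so did Prss1, with 8.36 in KO 3 and at most 1.01 elsewhere. Try5 split by animal code, with 279, 313 and 329 in KO 1, KO 2 and HET 1 and 616, 531 and 432 in KO 3, HET 2 and HET 3, while Try4 stayed between 517 and 690 in all 6 libraries. The distant copy 2210010C04Rik ran the other way, with 841, 975 and 852 per 1000 Prss2 reads in KO 1, KO 2 and HET 1 and 280 to 337 in the other 3 libraries. These ratios are given as a description.

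**Figure D3:**
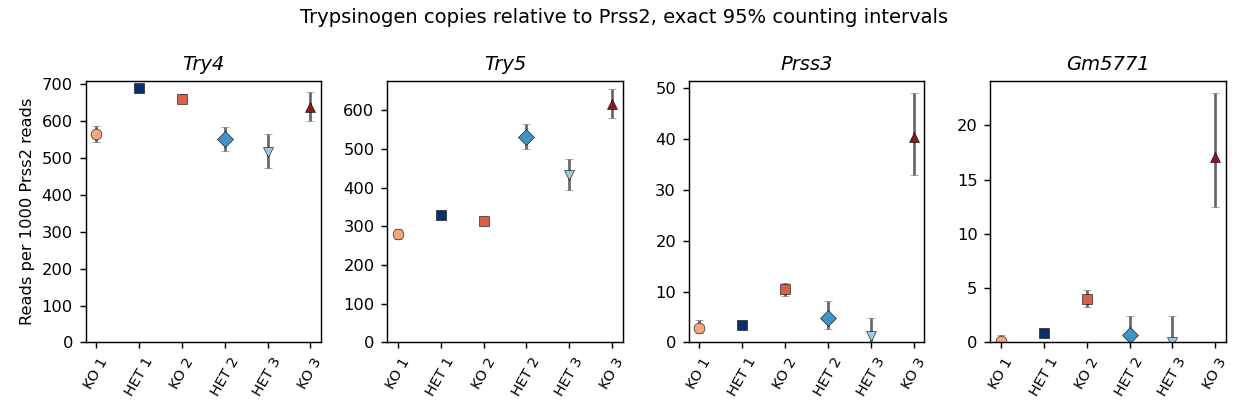
Reads of 4 trypsinogen copies per 1000 Prss2 reads in each library, in order of animal code, with exact 95% counting intervals as bars. Prss3 and Gm5771 stand highest in KO 3, at 40.3 and 17.1, and Try4 stays between 517 and 690.

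The makeup of the acinar reads differed between the low-code and the high-code libraries. Lipases and colipase took 23.8% to 25.6% of the reads of the 34 genes in KO 1, KO 2 and HET 1 and 12.9% to 14.0% in KO 3, HET 2 and HET 3. Carboxypeptidases took 12.4% to 13.7% and 7.54% to 8.51%. Chymotrypsinogens ran the other way, with 20.3% to 22.8% in the low-code and 26.6% to 28.4% in the high-code libraries, as did trypsinogens with 10.01% to 11.1% and 13.0% to 17.2%. The chymotrypsinogen share is that of Ctrb1, with 13.2% to 15.6% in the low-code and 22.5% to 24.8% in the high-code libraries. The other two members ran opposite to it: Ctrc had 3.46% to 3.55% and 1.55% to 2.05%, and Ctrl 3.66% to 3.73% and 1.99% to 2.08%. Within the other classes, Pnliprp2, Pla2g1b, Try4, Try10, Prss1 and Prss3 had overlapping shares. The summed shares of these 4 classes did not overlap, with or without KO 2, and each set of 3 libraries held both genotypes. Those of the remaining classes did not overlap either. Gatm took 0.197% to 1.46% in the low-code and 5.63% to 8.26% in the high-code libraries, and Bhlha15 0.199% to 0.632% and 5.28% to 7.20%. A larger share of both genes lowers the shares of the rest.

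Reads of each gene per Pnlip read gave a contrast gene by gene. Of the 29 genes other than Pnlip and the transcription factors, 20 had more reads per Pnlip read in all of KO 3, HET 2 and HET 3 than in the other 3 libraries, 6 overlapped, and 3, Clps, Rnase1 and Serpini2, had fewer. Ctrb1 had 1.02 to 1.29 reads per Pnlip read in the low-code libraries and 4.35 to 4.77 in the high-code ones. Prss2 had 0.399 to 0.481 and 1.30 to 1.48, and Cela1 0.609 to 0.689 and 1.53 to 2.01. The 20 genes share the Pnlip denominator and are not independent of each other. Pnlip had a HET 1 over HET 3 ratio of 168, against a median of 83.2 over 29 genes, and a gene with a smaller ratio rises relative to it. The direction of the count thus depends on the choice of Pnlip, and Gatm and Amy1 are among the 20.

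**Figure D4:**
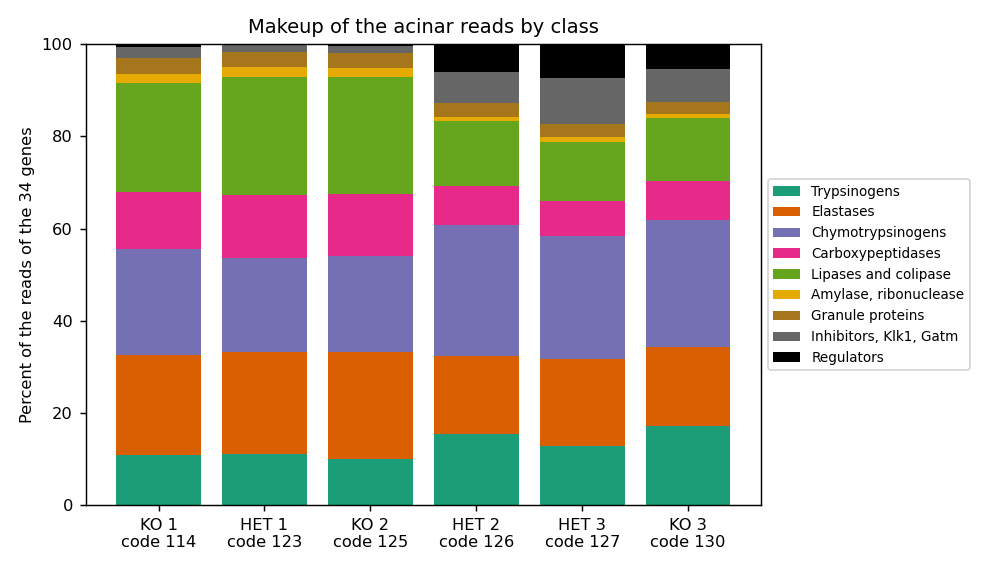
Share of the reads of the 34 genes taken by each class (stacked, percent) in each library, in order of animal code. Lipases and colipase take 23.8% to 25.6% in the 3 lowest codes and 12.9% to 14.0% in the 3 highest, and the regulators reach 7.47% in HET 3.

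The 4 transcription factor genes did not behave alike: Rbpjl followed the enzymes, Ptf1a did so in part, and Bhlha15 and Nr5a2 varied by 2.83-fold and 3.13-fold between their lowest and highest libraries. Rbpjl (ENSMUSG00000017007.9, chromosome 2, 164403141 to 164415448) had 1.78, 7.33 and 0.182 RPM in the KO libraries and 21.2, 0.0282 and 0.0603 RPM in the HET libraries. Of the 4, it alone had the order HET 1, KO 2, KO 1 and then the rest, and its HET 1 over HET 3 ratio was 352 (97.1 to 2914), from 657 reads and 2. Ptf1a had 0, 20 and 5 reads in the KO libraries and 134, 5 and 3 reads in the HET libraries. It was high in HET 1 and next in KO 2, and its ratio was 47.9 (16.03 to 235). In KO 1, the third highest library for most enzymes, 0 reads of Ptf1a allow a level of up to 0.103 RPM.

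Bhlha15 (ENSMUSG00000052271.7, chromosome 5, 144190286 to 144194441) had 29.3, 54.1 and 68.1 RPM in the KO libraries and 83.0, 64.7 and 48.7 RPM in the HET libraries. The lowest library was KO 1, and the HET 1 over HET 3 ratio was 1.70 (1.60 to 1.81). Nr5a2 had 1.51, 2.79 and 1.38 RPM in the KO libraries and 4.33, 1.63 and 1.66 RPM in the HET libraries, with a ratio of 2.61 (1.89 to 3.64). It was highest in HET 1 and KO 2, and the other 4 libraries lay between 1.38 and 1.66 RPM. The high-code libraries, at 48.7 to 68.1 RPM of Bhlha15, lay within the range of the low-code ones, 29.3 to 83.0 RPM. In RPM per kilobase of exon, Bhlha15 had 13.9 and Cpa1 18.1 in HET 3, whereas in HET 1 they had 23.8 and 1668.

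Summed over the 4 genes, transcription factor RNA ran from 32.6 RPM in KO 1 to 113 RPM in HET 1, while the other 30 genes ran from 626 RPM (HET 3) to 41483 RPM (HET 1). The log2 ratio of the first sum to the second was -7.14, -8.04 and -4.13 in the KO libraries and -8.52, -3.97 and -3.63 in the HET libraries. It was lower in each low-code library than in any high-code one, and the genotypes overlapped. The sum was mostly Bhlha15, so the ratio describes that gene more than the PTF1 subunits. Rbpjl had 0.387, 0.429 and 0.150 RPM per 1000 RPM of the other 30 genes in the KO libraries and 0.512, 0.0270 and 0.0964 in the HET libraries. Ptf1a had 0, 0.0393 and 0.150 RPM per 1000 RPM in the KO libraries and 0.104, 0.135 and 0.145 in the HET libraries. Per unit of enzyme RNA, Rbpjl was thus higher in the low-code libraries, where Ptf1a and Bhlha15 were lower. The high-code values rest on 5, 1 and 2 reads of Rbpjl and 5, 5 and 3 reads of Ptf1a in KO 3, HET 2 and HET 3.

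**Figure D5:**
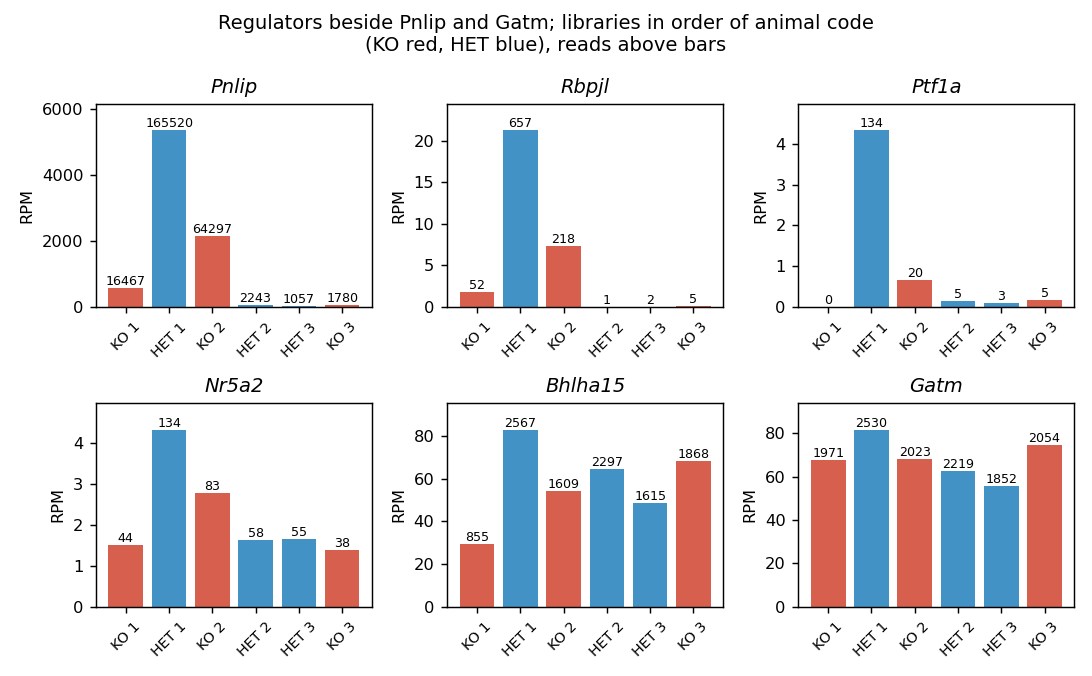
RPM of Pnlip, the 4 transcription factor genes and Gatm in each library, in order of animal code (KO red, HET blue), with the number of reads above each bar; vertical axes start at 0 and differ in scale. Rbpjl follows Pnlip from 21.2 RPM (HET 1) to 0.0282 RPM (HET 2), and Bhlha15 and Gatm have tall bars in every library.

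Reads that lie over 2 genes limit some of these values, since the strandedness of the counts is not given in the sources used here. Casp9, a caspase gene outside the 34 that was chosen after its values were seen, lies opposite the shared end of Cela2a and Ctrc (chromosome 4, 141793612 to 141815976). It had 37.4, 112 and 14.7 RPM in the KO libraries and 273, 16.2 and 15.1 RPM in the HET libraries, the same 3 libraries being high. The models of Cela2a and Ctrc both start at 141814962 on the same strand, and Ctrc reads were 30.9% to 34.8% of Cela2a reads in all 6 libraries. Ptf1a and Rbpjl are overlapped on the opposite strand by Ptf1aos and Matn4, also chosen after their values were seen, with at most 41 and 66 reads in a library. Samd4b and Fgfr2, likewise chosen after their values were seen, span Sycn on the opposite strand and Cuzd1 on the same strand. In HET 3 they had 2830 and 150 reads, against 218 of Sycn and 16 of Cuzd1. The part of these overlaps in the values was not tested.

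None of the acinar genes was called as different in KO islets. In limma with Benjamini-Hochberg adjustment, 0 of 14238 genes (0%) and 0 of the 32 acinar genes whose mean reached 1 RPM had an adjusted p under 0.05. Prss1 and Ptf1a did not reach that mean. At an unadjusted p under 0.05 there were 250 genes (1.76%), none of them acinar, and limma-voom also called 0 genes. That count was 1704, with 2 acinar genes, without HET 1 and 941 without KO 3, and it was 83 without KO 1, 104 without HET 2 and 80 without HET 3, and also lower without KO 2. For 0 of the 34 genes were the KO and HET libraries free of overlap, against 5.74% of all genes tested. The authors' deposited sheet of 3 selected genes held 0 of the 34.

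Single genes had wide intervals. The mean RPM of Pnlip was 930.4 ± 1095 over the KO and 1815 ± 3062 over the HET libraries (SD, n = 3 per group), and its difference, KO minus HET on the log2(RPM + 1) scale, was 0.94 (95% interval -5.02 to 6.91, limma adjusted p = 0.9998). For Ctrb1 the difference was 0.39 (-3.46 to 4.24), for Prss3 0.92 (-1.42 to 3.27) and for Rbpjl 0.06 (-3.50 to 3.62). Without KO 2 the differences turned to -0.22 for Pnlip, -0.37 for Ctrb1 and -0.67 for Rbpjl, and that of Prss3 was 0.34. The intervals of the 4 genes include changes of many fold in either direction. The narrow ones were those of the genes with even levels, at 0.09 (-0.35 to 0.52) for Gatm, -0.42 (-1.19 to 0.35) for Bhlha15 and -0.24 (-1.02 to 0.54) for Nr5a2. All had a limma adjusted p of 0.9998. Leaving out KO 2 gave 0.11 for Gatm, -0.51 for Bhlha15 and -0.45 for Nr5a2.

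The direction of the group difference depended on the scale. On the linear scale 30 of the 32 genes tested had the higher mean in HET. On the log2 scale 28 of 32 had the higher mean in KO, where 51.4% of all genes did, with a median difference of 0.51 against 0.0075 over all genes tested. Both held for 26 of 32 genes, and for 2.16% of all genes tested. In the authors' deposited table, whose difference is HET minus KO on the log2 scale, 31 of 34 genes were negative, the exceptions being Ptf1a, Bhlha15 and Nr5a2. Allowing for low against high animal code turned the difference, with 30 of 32 genes lower in KO (39.9% of all genes tested) and a median of -0.87. In that fit 767 genes (5.39%) had an unadjusted limma p under 0.05, 0 of them acinar, and 0 genes passed after adjustment. Without HET 1 the median was 2.24. Without KO 2 it was -0.37, and 3 of 32 genes had the higher log2 mean in KO.

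Genes outside the 34 that belong to the same cell type gave a wider view. Of 12 further digestive and granule genes in the table, 8 were tested, 0 passed, and all 8 were more than 10-fold higher in HET 1 than in HET 3 or had 0 reads in HET 3. Dmbt1, which encodes a secreted scavenger receptor protein, had 113, 276 and 4.85 RPM in the KO libraries and 504, 9.603 and 2.17 RPM in the HET libraries. Of 14 tested genes of acinar secretion 0 passed, and 3 passed 10-fold or had 0 reads in HET 3, namely Cckar, the cholecystokinin receptor gene that triggers enzyme release, the aquaporin gene Aqp12 and Tmed11. Cckar had 0.959, 6.42 and 0.182 RPM in the KO libraries and 25.8, 0.591 and 0.241 RPM in the HET libraries. Among the rest, the gap junction gene Gjb1 came nearest to 10-fold, at 9.45, and the granule GTPase gene Rab3d had 120.1 to 184 RPM over the 6 libraries, with a ratio of 0.768. Of 9 tested partners of the acinar transcription factors, such as Rbpj, Tcf12 and Xbp1, 0 passed, 0 exceeded 10-fold, and the median HET 1 over HET 3 ratio was 1.01.

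The lists of other cell types mostly did not share the range of the acinar genes. Between HET 1 and HET 3, 1 of 3 Schwann cell genes tested exceeded 10-fold, from 11 reads and 1 (counting interval 1.71 to 508). In the beta, other islet hormone, endothelial, stellate and macrophage lists 0 did. The stellate gene Dcn, named after its values were seen, was 40.0-fold higher in KO 2 than in KO 3, from 130 reads and 3. Of 10 duct genes tested 0 exceeded 10-fold between HET 1 and HET 3. The 12 duct genes listed had lower sums in the low-code libraries, at 447, 476 and 382 RPM in KO 1, KO 2 and HET 1, than in the high-code ones, at 627, 638 and 763 RPM in KO 3, HET 2 and HET 3. Much of that difference lay in the keratin gene Krt7, named after its values were seen, with 131, 118 and 97.9 RPM in KO 1, KO 2 and HET 1 and 285, 276 and 338 RPM in the others. Of the 10 duct genes tested, 4 ran opposite to the sums, with all 3 low-code libraries above the high-code ones. Krt19, another duct keratin gene, was among these 4. It had 16.8, 26.8 and 18.0 RPM in KO 1, KO 2 and HET 1. In KO 3, HET 2 and HET 3 it had 10.8, 7.24 and 14.4 RPM. The 6 stellate cell genes summed to 81.6, 155 and 112 RPM in KO 1, KO 2 and HET 1 and to 43.3, 37.3 and 47.5 RPM in KO 3, HET 2 and HET 3, but 2 of the 6 separated in this way. Rgs5, named after its values were seen, held most of the sum in KO 1, at 59.1 RPM, and had 6.88 to 13.1 RPM in the high-code libraries. Pdgfrb, also named after its values were seen, was lower in the low-code libraries, at 4.39 to 5.43 RPM against 16.1 to 16.4 RPM. Gcg, the glucagon gene, was lower in the low-code libraries, with 15420.0 RPM in KO 1, 12804 in KO 2 and 10178 in HET 1, against 29467 in KO 3, 19009 in HET 2 and 16295 in HET 3. The part of other cell types in the acinar values was not tested.

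The genes outside the 34 whose profile was most like the enzymes' were named by the root mean square distance to the median profile of 29 tested genes, on the log2 scale over 6 libraries. Among the 10 nearest were Pdia2, a protein disulfide isomerase gene of the pancreas, at 0.127, then Amy2a4 at 0.155, Tff2 at 0.224, Amy2a3, Reg1, Amy2a5, Amy2a1, Tph1 and 2210010C04Rik, the last 2 at 0.573. Tph1, the serotonin synthesis enzyme gene, had 190 RPM in KO 1, 256 in KO 2 and 23.7 in KO 3, and 572 in HET 1, 15.4 in HET 2 and 19.5 in HET 3. Among the 34, Cela3b at 0.107 and Cela1 at 0.108 were nearest, and Bhlha15 at 2.09 and Gatm at 2.02 farthest. Cela3b, Cela1 and Gatm were among the 29 genes that formed the profile, and the transcription factor genes were not. Rbpjl at 0.539 was the nearest of the transcription factor genes.

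Promoter sequence was read for all of the 34 genes with an entry, from RefSeq on GRCm38.p6, as 250 bases before and 50 after each gene's start. Of the 34 genes 28 had an entry. Shown 5′ to 3′ on the gene's strand are Cela1 (chr15:100687871-100688170, minus strand) and Ctrb1 (chr8:111690961-111691260, minus strand), which carry the E-box and TC-box pair, and 2 transcription factor genes for comparison, Rbpjl (chr2:164402944-164403243, plus strand) and Bhlha15 (chr5:144190036-144190335, plus strand). Capitals mark the E-box CACCTG, the TC-box TTTCCC, the TATA box TATAAA and the E-box CANNTG of a pair, on either strand.
Cela1: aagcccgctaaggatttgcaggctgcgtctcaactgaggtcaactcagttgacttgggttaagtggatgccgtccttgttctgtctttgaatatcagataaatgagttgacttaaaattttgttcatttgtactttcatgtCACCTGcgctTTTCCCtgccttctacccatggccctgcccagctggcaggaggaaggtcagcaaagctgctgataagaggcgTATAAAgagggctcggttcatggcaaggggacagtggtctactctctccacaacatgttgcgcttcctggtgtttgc
Ctrb1: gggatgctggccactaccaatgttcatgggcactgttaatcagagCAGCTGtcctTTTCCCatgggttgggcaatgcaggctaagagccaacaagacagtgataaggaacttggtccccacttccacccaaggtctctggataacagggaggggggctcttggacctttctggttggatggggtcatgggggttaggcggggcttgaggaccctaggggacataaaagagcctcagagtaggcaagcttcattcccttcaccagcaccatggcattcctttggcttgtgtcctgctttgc
Rbpjl: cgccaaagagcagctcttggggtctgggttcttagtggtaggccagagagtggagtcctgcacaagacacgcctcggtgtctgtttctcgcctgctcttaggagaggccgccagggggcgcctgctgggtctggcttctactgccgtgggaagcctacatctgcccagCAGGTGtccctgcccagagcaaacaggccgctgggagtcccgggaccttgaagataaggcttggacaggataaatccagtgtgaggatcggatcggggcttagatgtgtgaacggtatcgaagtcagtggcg
Bhlha15: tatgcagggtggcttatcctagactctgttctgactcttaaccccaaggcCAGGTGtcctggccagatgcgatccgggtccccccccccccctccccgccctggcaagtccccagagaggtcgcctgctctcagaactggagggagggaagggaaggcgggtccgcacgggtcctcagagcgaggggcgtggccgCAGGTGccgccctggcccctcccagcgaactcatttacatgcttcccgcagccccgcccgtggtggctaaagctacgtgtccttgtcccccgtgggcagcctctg
The pair, CANNTG followed within 12 bases by TTTCCC, was present on either strand in 3 of 24 non-regulator genes (12.5%), Cela1, Ctrb1 and Prss1. It was present in 1.54% of all 32851 promoters. The 24 are counted by gene, with a match in any promoter of the gene, and the 32851 by promoter. The 24 include Prss1, Prss3 and Gatm, which did not follow the order of the other genes. The pair starts 109 bases before the gene start in Cela1 and 205 bases before it in Ctrb1. CACCTG alone was present in 14 of 24 (58.3%) and in 20.2% of all promoters, and it can be part of a pair. TATAAA was present in 10 of 24 (41.7%) and 13.6%, and TTTCCC in 7 of 24 (29.2%) and 25.2%. Rbpjl, which followed the enzymes, and Bhlha15, which did not, both hold CACCTG on the opposite strand and neither holds the pair in this window. A match is a description of letters and not evidence of binding.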

How the data were processed

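Whole-islet poly(A) libraries from 6 mice, 3 per genotype, each with its own animal code, were grouped by the genotype label. The submitters' processing notes name HISAT2, DESeq2 and the build GRCm38. How reads were counted, with which annotation and whether by strand, is not given in the sources used here. Values were deposited by the authors as log2 RPM per gene and library, with 0 reads written as 0.9 read. Whole reads were recovered from the steps between low values: 100% of the 93649 values below 1000 reads were whole to within 0.01 read. The deposited table also gives a fold ratio of HET over KO, and a sheet of 3 genes the authors' corrected p-value.

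RPM was tested as log2(RPM + 1), for genes whose mean reached 1 RPM, by limma 3.58.1 (R 4.3.3) with trend and robust moderation, Benjamini-Hochberg adjustment over 14238 genes and a threshold of 0.05; this scale understates changes of low genes. The script was tested on simulated data. Ratios between libraries have exact 95% counting intervals, which cover counting error only. No library duplicated another of its group (chi-square over degrees of freedom, 17.8 to 227.5). Positions of 28 of the 34 genes were identical to GENCODE M21, from which identifiers and exon lengths were taken.

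The members, lists and animal code split were chosen with earlier results of these data known. Named were the 34 genes, genes of 3 related lists, the 10 genes most like them, of which 1 is not reported here, and Ins1, Ins2, Krt19 and Gcg; others are identified as chosen after their values were seen. Alternatives covered scaling, filters, pseudocounts, limma-voom on whole reads, the code block and leaving out each library.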

Additional observations from a re-analysis of the deposited data

How the results depend on the processing

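No gene, and none of the 34, passed the threshold under any of 14 alternatives (other scaling, filters, pseudocounts, limma-voom, the animal code block and leaving out each library). The lowest limma adjusted p among all genes was 0.0965 with the block and 0.249 without HET 1. Directions were less stable. With the block the difference, KO minus HET, turned to -0.88 for Pnlip, -0.74 for Ctrb1 and -1.01 for Rbpjl, and with a pseudocount of 5 to -0.21 for Rbpjl, which was 1.06 with a pseudocount of 0.1 and 1.92 by limma-voom. Leaving out 1 library gave -0.44 to 3.23 for Pnlip, -0.61 to 1.97 for Ctrb1, -0.69 to 1.53 for Rbpjl, -0.029 to 0.24 for Gatm and -0.45 to 0.10 for Nr5a2. The cause was not tested. Prss3 kept its direction in 13 of 13 alternatives, from 0.34 to 2.35. Bhlha15 kept its direction in 14 of 14, from -0.67 to -0.075 with 1 library left out, the value nearest to none being that without KO 1. The median over the acinar genes ran from -0.56 to 2.24 with 1 library left out and from -0.87 to 0.64 otherwise. The difference in acinar share ran from -2.07 to 1.04 percentage points with 1 library left out and from -1.002 to -0.68 otherwise, and that in the log2 ratio of transcription factor to other RNA from -2.63 to -0.19 and from -1.07 to -0.80. Prss3 and Nr5a2 had no value with a minimum mean of 5 RPM. An edgeR test was planned for counts and was not run, since the deposited values are on a log2 scale. No paired analysis was possible because the replicate numbers follow the order of the records and pair no animals. Depth limits Ptf1a, Rbpjl, Prss1 and Serpini2, which had 5 reads or fewer in several libraries.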
